A study of Mus musculus with 6 samples.

Results

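The 10 genes described here take part in iron handling and were found by gene symbol in a count table of the mouse retina. They are Lcn2, Cp, Heph, Steap4, Steap3, Slc40a1, Slc11a1, Tfrc, Fth1 and Ftl1. All 10 had 1 row each among the 23420 genes of the table. They were chosen by their role in iron handling with the group levels and fold changes of these same counts already known, so their values are a description and not independent evidence that iron genes respond. The study asked how minocycline, a tetracycline antibiotic, alters the response of the retina to damaging white light, and its RNA-seq part held 6 libraries of retinal RNA. Control retinas (2 libraries) received no treatment. Light-exposed retinas (2 libraries) were taken 4 days after 1 h of light. Light-exposed retinas with minocycline (2 libraries) had the same exposure and, by the labels, daily intraperitoneal minocycline at 45 mg/kg for 4 days, and the labels name no vehicle for the other groups. No group carries a transgene or a gene deletion. The labels give the outbred albino strain CD1 and a light intensity of 10000 lux for all exposed animals, whereas the methods of the study describe albino BALB/cJ mice of 10 to 14 weeks and both sexes, and another light intensity. The methods also describe minocycline as begun on the day before the exposure, given more than once a day at first and for longer than 4 days, so that the treated animals had the drug before the light. The labels do not say how many animals or eyes went into a library.

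Iron is needed by the retina for the visual cycle enzyme RPE65, for mitochondria and for the synthesis of photoreceptor membranes, and free ferrous iron generates hydroxyl radicals from peroxide. Cells take up transferrin-bound iron through the transferrin receptor (Tfrc), reduce it in endosomes with metalloreductases of the Steap family, store it in ferritin shells built from heavy (Fth1) and light (Ftl1) chains, and release it through ferroportin (Slc40a1). Export through ferroportin is coupled to oxidation by the multicopper ferroxidases ceruloplasmin (Cp) and hephaestin (Heph), and loss of both leads to iron overload and degeneration of the retina in mice. Slc11a1 (Nramp1) pumps divalent metal out of the phagosome of macrophages. Lcn2 encodes lipocalin 2, a secreted protein of the acute phase that binds iron-loaded siderophores.

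Library totals lay between 15205930 and 22856922 counts. Levels are given as CPM, the count scaled by the TMM-adjusted library size, and 3 counts, taken as the limit that a count of 0 allows, equal 0.131 to 0.213 CPM. This limit covers counting error only, since PCR copies are not independent molecules. Rod genes dominated the libraries, with a summed level of 38639 to 92431 CPM over 8 rod genes, so that the defining genes of the labelled tissue were present in all 6. Control 1 held 77778 counts of Xist and 11 counts of 4 Y-linked genes, while the other 5 libraries held 25 to 188 and 6532 to 12858. The control libraries thus differed in sex, and Heph is the only one of the 10 genes on the X chromosome. The headers do not tell the libraries with minocycline apart, so they are named minocycline A and B and carry no replicate number. Replicates differed beyond counting noise in every group, and the study calls them biological replicates without saying how animals were pooled, so p-values measure the spread between these libraries.

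After light, 6 of the 10 genes (Lcn2, Cp, Steap4, Steap3, Slc40a1 and Slc11a1) rose at an adjusted p under 0.05, and 0 fell with edgeR or DESeq2. This was against 7.52% of the 14349 tested genes that rose and 3.8% that fell. Lcn2, Steap4 and Slc11a1 also passed a log2 fold change of 2, as did 2.89% of tested genes, while 0.0279% passed -2. With total library size in place of TMM, 8 rose, with Heph and Ftl1 added. DESeq2 gave 7 genes higher, with Fth1 and Ftl1 added and Steap3 left out, and over all genes 1149 higher and 766 lower. Without control 1 or without control 2, Steap4 alone of the 10 passed. Without light 2, 5 passed (Lcn2, Cp, Steap4, Slc11a1 and Ftl1), and 9 without light 1. The median log2 fold change of the 10 genes was 1.66, and that of all tested genes 0.0025. With minocycline, 2 of the 10 genes, Lcn2 and Steap4, were lower than after light alone at that threshold. This was against 0.0407% of 14750 tested genes that fell, 0.0339% that also passed a log2 fold change of -2, and 0.0136% that rose. The median log2 fold change of the 10 genes was -1.37 and that of all tested genes 0.0062. DESeq2 gave 6 genes lower in this comparison, with Cp, Slc11a1, Slc40a1 and Ftl1 added, and over all genes 734 lower and 463 higher. With edgeR the count was 0 with total library size in place of TMM or without minocycline B. Between minocycline-treated and control retinas, 0 of the 10 genes passed with edgeR and 0 with DESeq2, and 3 had an unadjusted p under 0.05, as did 7.01% of all tested genes. In that comparison 0.162% of 14181 tested genes rose and 0 fell. The light-exposed libraries enter both of the first comparisons, so a high light value alone gives a rise in one and a fall in the other. The summed level of 10 microglia genes moved between the same groups, from 48.9 and 48.8 CPM in control to 224 and 662 CPM after light and 77.3 and 44.3 CPM with minocycline. In bulk tissue, fewer cells of a type and less RNA per cell cannot be told apart.

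**Figure D1:**
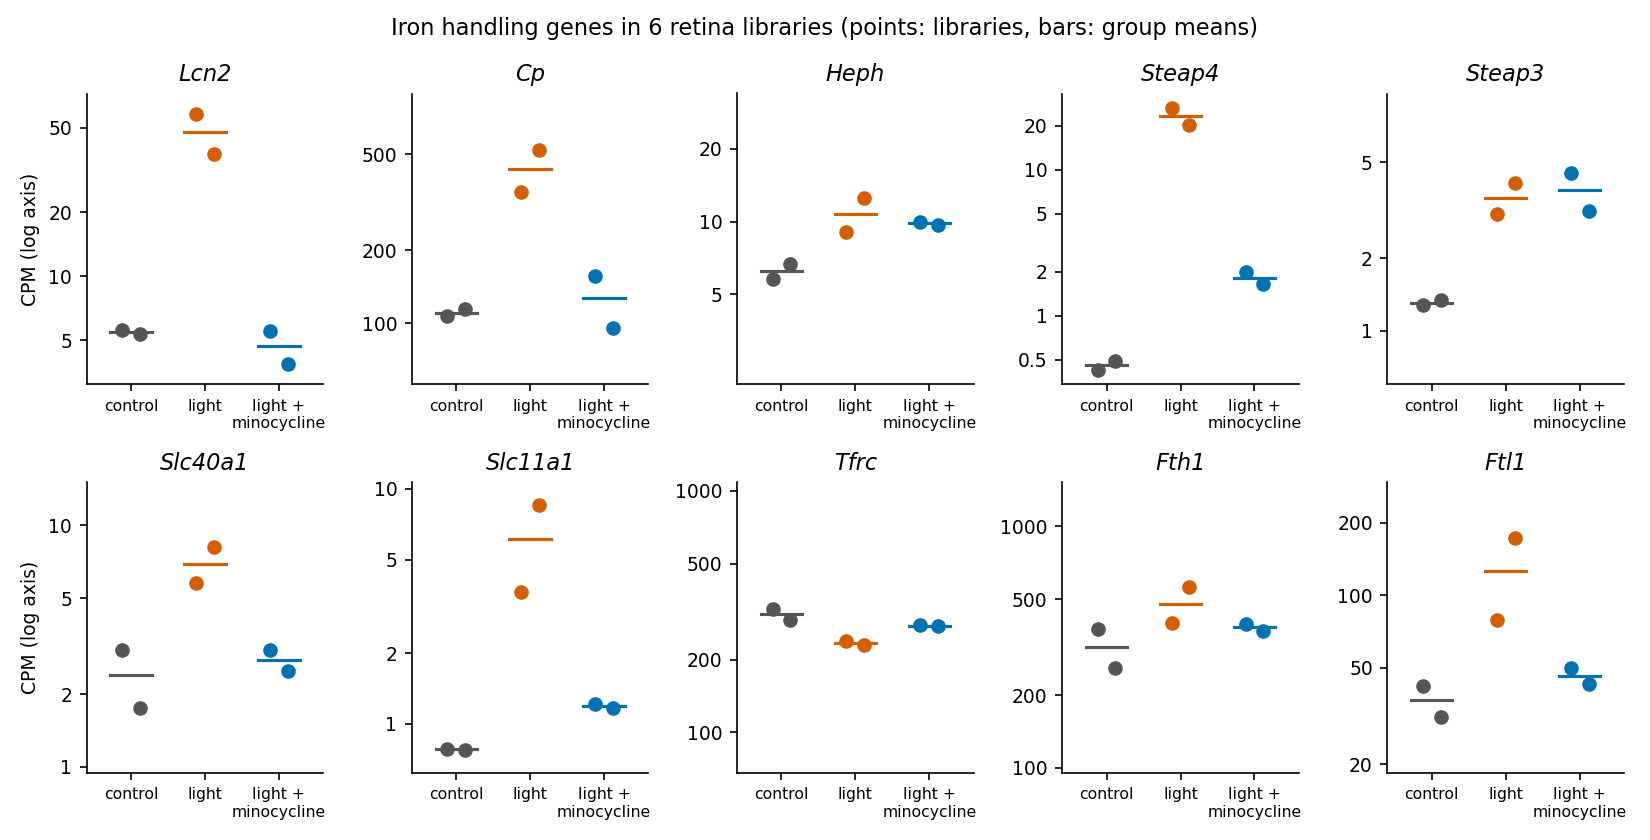
Level of each of the 10 genes in CPM (log axis, own range for each gene) in control, light-exposed and light-exposed minocycline-treated retinas. Points are libraries and bars are group means of 2. Both light-exposed points lie above both control points for every gene but Tfrc, where they lie below.

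The upstream sequences of Lcn2 and Steap4 are shown because these were the 2 genes that passed with edgeR and TMM scaling both as higher after light and as lower with minocycline. The set was wider with DESeq2, with 6 genes, and narrower with other scalings in edgeR. Promoter windows of 300 bases from RefSeq (GRCm38.p6) were found for 8 of the 10 genes, 14 windows in all, and each stretch printed here runs from position -250 to -61 from the annotated start. Capitals mark matches, on either strand, to the motifs searched: C/EBP (TTGCNNAA), STAT (TTCNNNGAA), the antioxidant response element (TGACNNNGC), the hypoxia response element (ACGTG) and the κB motif.
Lcn2, chr2:32387800-32387989, minus strand: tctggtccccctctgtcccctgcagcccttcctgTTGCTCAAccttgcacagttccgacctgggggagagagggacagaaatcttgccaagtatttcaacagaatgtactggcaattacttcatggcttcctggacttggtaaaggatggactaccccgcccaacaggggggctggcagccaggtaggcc
Steap4, chr5:7960222-7960411, plus strand: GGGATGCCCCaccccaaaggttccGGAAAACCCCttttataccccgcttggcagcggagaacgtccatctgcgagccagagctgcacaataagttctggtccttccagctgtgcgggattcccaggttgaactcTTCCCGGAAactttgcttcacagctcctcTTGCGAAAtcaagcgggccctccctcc

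The Lcn2 stretch held 1 match, the C/EBP match TTGCTCAA at position -216 from the RefSeq start of transcription. This stretch is upstream of the RefSeq start only. It lies within the Lcn2 gene as placed by GENCODE vM21 (32384633 to 32388252). Steap4 held κB matches at -250 and -226, the STAT match TTCCCGGAA at -116 and the C/EBP match TTGCGAAA at -87, and none of these overlapped another. In the windows of the 8 genes, C/EBP matches were found for 5 genes (Lcn2, Cp, Steap4, Steap3 and Fth1), κB matches for 3 (Steap4, Steap3 and Ftl1), a STAT match for Steap4 alone and hypoxia response element matches for Tfrc alone. No window matched the antioxidant response element. Over all 32851 promoter windows of the same length, 10.8% held a C/EBP match, 8.46% a κB match, 8.30% a STAT match, 12.4% an antioxidant response element and 19.6% a hypoxia response element. Several genes have more than 1 window, so counts per gene are not directly comparable with these shares. A match is a stretch of letters and not a measured binding site.

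Lcn2 (chromosome 2, 32384633 to 32388252, GRCm38) had 78 and 76 counts in control 1 and 2, 993 and 790 in light 1 and 2, and 127 in minocycline A and 73 in minocycline B. On the CPM scale these were 5.54 and 5.35 in control, 58.0 and 37.5 after light, and 5.53 and 3.87 with minocycline. Both light-exposed libraries stood far above the other 4, and the minocycline libraries spanned from the control level to below it. Lcn2 rose 8.77-fold after light (log2 fold change 3.13 ± 0.24 SE, adjusted p = 0.000312 with edgeR's quasi-likelihood test). It was lower by a factor of 10.0 with minocycline than after light alone (log2 fold change -3.32 ± 0.28 SE, adjusted p = 0.0444). Without control 1 or control 2 the adjusted p of the rise was 0.0821 or 0.0915, and without minocycline B that of the fall was 0.149. The adjusted p of the fall was also above the threshold with another scaling, at 0.0604 with DESeq2 size factors and 0.0986 with total library size, whereas DESeq2 gave 1.18e-23. Against control, the minocycline group differed by a log2 fold change of -0.17 (95% confidence interval -0.88 to 0.55).

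Neutrophils store lipocalin 2 in granules. The neutrophil marker genes were low in every library, and their sum was highest after light. The 9 listed of 10 marker genes, among them S100a8, S100a9 and Mpo, summed to 0.0704 to 0.213 CPM in control, 1.29 and 3.28 after light and 0.265 to 0.783 with minocycline, with 4 to 8 of the 9 at 0 counts. Mmp8, a collagenase of neutrophil granules, had 8 and 39 counts in light 1 and 2 and 0 in the other 4 libraries. S100a8 had 1 and 0 counts in control, 7 and 24 after light, and 4 and 2 with minocycline. S100a9 had 2 and 0 counts in control, 6 and 4 after light, and 10 and 2 with minocycline. Mmp8 and S100a8 were thus highest in light 2 and S100a9 in minocycline A. Camp and Elane had 0 counts in all 6 libraries, and Cxcr2, Mpo, Ngp and Retnlg had 0 to 2. No neutrophil marker passed the filter on low counts in a comparison, and the part of such cells in the level of Lcn2 was not tested.

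The ferroxidases differed in size of response. Ceruloplasmin (Cp, chromosome 3, 19957054 to 20009145), the circulating and membrane-anchored ferroxidase, stood at 107 and 114 CPM in control, 351 and 520 CPM after light, and 157 and 95.8 CPM with minocycline. Light-exposed retinas were above all others, and minocycline A and B lay on either side of the controls. Cp rose 3.96-fold after light (log2 fold change 1.98 ± 0.20 SE, adjusted p = 0.00214, edgeR). The difference with minocycline from light alone was -1.77 (95% confidence interval -2.48 to -1.06, adjusted p = 0.0698, edgeR), which did not pass. Counts per gene do not separate the secreted and the membrane-anchored form.

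Hephaestin (Heph, chromosome X, 96455359 to 96574485), the membrane-bound ferroxidase, had 5.76 and 6.69 CPM in control, 9.05 and 12.5 CPM after light, and 9.97 and 9.70 CPM with minocycline. The minocycline libraries fell between the light-exposed libraries and did not overlap the controls. The log2 fold change was 0.80 after light (adjusted p = 0.0903, edgeR, and 0.0461 with total library size), 0.70 with minocycline against control (adjusted p = 0.589) and -0.12 with minocycline against light (95% confidence interval -0.70 to 0.47). The ratio of Cp counts to Heph counts was 18.6 and 17.0 in control, 38.7 and 41.6 after light, and 15.8 and 9.88 with minocycline. It was thus higher in both light-exposed libraries than in the other 4.

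Steap4 (chromosome 5, 7960457 to 7982213), a metalloreductase of ferric and cupric ions that inflammatory cytokines induce in several tissues, had the largest fold change of the 10 genes. It had 6 and 7 counts in control, 454 and 427 after light, and 46 and 31 with minocycline. In CPM these were 0.427 and 0.493 in control, 26.5 and 20.3 after light, and 2.00 and 1.64 with minocycline. The groups were well apart from each other, with minocycline between control and light. Steap4 rose 50.2-fold after light (log2 fold change 5.65 ± 0.34 SE, 95% confidence interval 4.90 to 6.40, adjusted p = 2.61e-05, edgeR). By size of fold change it ranked 31 among the 14349 tested genes. It was lower by a factor of 12.6 with minocycline than after light alone (log2 fold change -3.66 ± 0.26 SE, adjusted p = 0.0239). Without minocycline B this adjusted p was 0.0516, and the rise after light passed with each library left out in turn. Minocycline-treated retinas had a log2 fold change of 2.02 over control (95% confidence interval 0.98 to 3.05, adjusted p = 0.186), which did not pass, but did without minocycline B (2.11, adjusted p = 0.0338).

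Steap3 (chromosome 1, 120190757 to 120272705), the main ferrireductase of transferrin endosomes in red cell precursors, was at 1.28 and 1.34 CPM in control, 3.04 and 4.08 CPM after light, and 4.53 and 3.13 CPM with minocycline. Light-exposed and minocycline-treated libraries overlapped, and both groups were above control. It rose 2.73-fold after light (log2 fold change 1.45 ± 0.39 SE, adjusted p = 0.0390, edgeR), a call that DESeq2 did not make (adjusted p = 0.0954). The log2 fold change of minocycline over control was 1.59 (95% confidence interval 0.72 to 2.46, adjusted p = 0.227). Between minocycline and light it was 0.12 (95% confidence interval -0.71 to 0.95), and its sign turned to -0.051 with total library sizes in place of TMM. The ratio of Steap4 counts to Steap3 counts was 0.333 and 0.368 in control, 8.73 and 4.97 after light, and 0.442 and 0.525 with minocycline.

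Ferroportin (Slc40a1, chromosome 1, 45908068 to 45926523), the only known cellular iron exporter of mammals, had 3.06 and 1.76 CPM in control, 5.78 and 8.12 CPM after light, and 3.05 and 2.49 CPM with minocycline. The minocycline libraries lay between the controls. It rose 2.90-fold after light (log2 fold change 1.53 ± 0.38 SE, adjusted p = 0.0280, edgeR). With minocycline it was lower than after light by a log2 fold change of -1.31 (95% confidence interval -2.08 to -0.54, adjusted p = 0.0941), which did not pass.

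Slc11a1 (chromosome 1, 74375195 to 74386062), the metal transporter of macrophage phagosomes, had 11 counts in each control, 62 and 180 after light, and 28 and 22 with minocycline. Its CPM were 0.782 and 0.775 in control, 3.62 and 8.55 after light, and 1.22 and 1.17 with minocycline. The light-exposed libraries differed from each other by a factor of 2.36, the widest gap within a group over the 10 genes. Slc11a1 rose 7.81-fold after light (log2 fold change 2.97 ± 0.50 SE, adjusted p = 0.0121, edgeR). Against light, minocycline gave -2.33 (95% confidence interval -3.48 to -1.19, adjusted p = 0.0741).

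The transferrin receptor (Tfrc, chromosome 16, 32608920 to 32632794) had 323 and 293 CPM in control, 238 and 229 CPM after light, and 277 and 274 CPM with minocycline. It was the only one of the 10 genes with both light-exposed libraries below both controls, and the minocycline libraries lay between them. The log2 fold change after light was -0.39 (95% confidence interval -0.73 to -0.06, adjusted p = 0.117, edgeR), which did not pass. It was 0.26 with minocycline against light (adjusted p = 0.349).

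Ferritin chains differed in their spread. The heavy chain Fth1 (chromosome 19, 9980598 to 9985098), which carries the ferroxidase centre, had 375 and 260 CPM in control, 396 and 561.1 CPM after light, and 395 and 369 CPM with minocycline. Its log2 fold change after light was 0.60 (95% confidence interval 0.08 to 1.11, adjusted p = 0.120, edgeR), and DESeq2 gave an adjusted p of 0.0447. The light chain Ftl1 (chromosome 7, 45457944 to 45459884), which promotes formation of the iron core, had 42.3 and 31.4 CPM in control, 78.9 and 173 CPM after light, and 49.9 and 42.8 CPM with minocycline. Its log2 fold change was 1.78 after light (95% confidence interval 0.50 to 3.06, adjusted p = 0.0966) and -1.42 with minocycline against light (adjusted p = 0.126), both with edgeR. Against control, Ftl1 passed with DESeq2 (adjusted p = 0.0219), with total library size (0.0462), without robust estimation (0.0145) and with all 6 libraries in one fit (0.0370). It also passed without light 1 or without light 2, but not without control 1 (0.245) or control 2 (0.390). The light-exposed values of Ftl1 were both above the other 4 libraries but 2.19-fold apart. The ratio of Ftl1 counts to Fth1 counts was 0.113 and 0.121 in control, 0.199 and 0.308 after light, and 0.127 and 0.116 with minocycline. Ferritin genes have processed pseudogenes and the handling of reads that map to several places is not stated, so ferritin counts are uncertain to that extent.

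**Figure D2:**
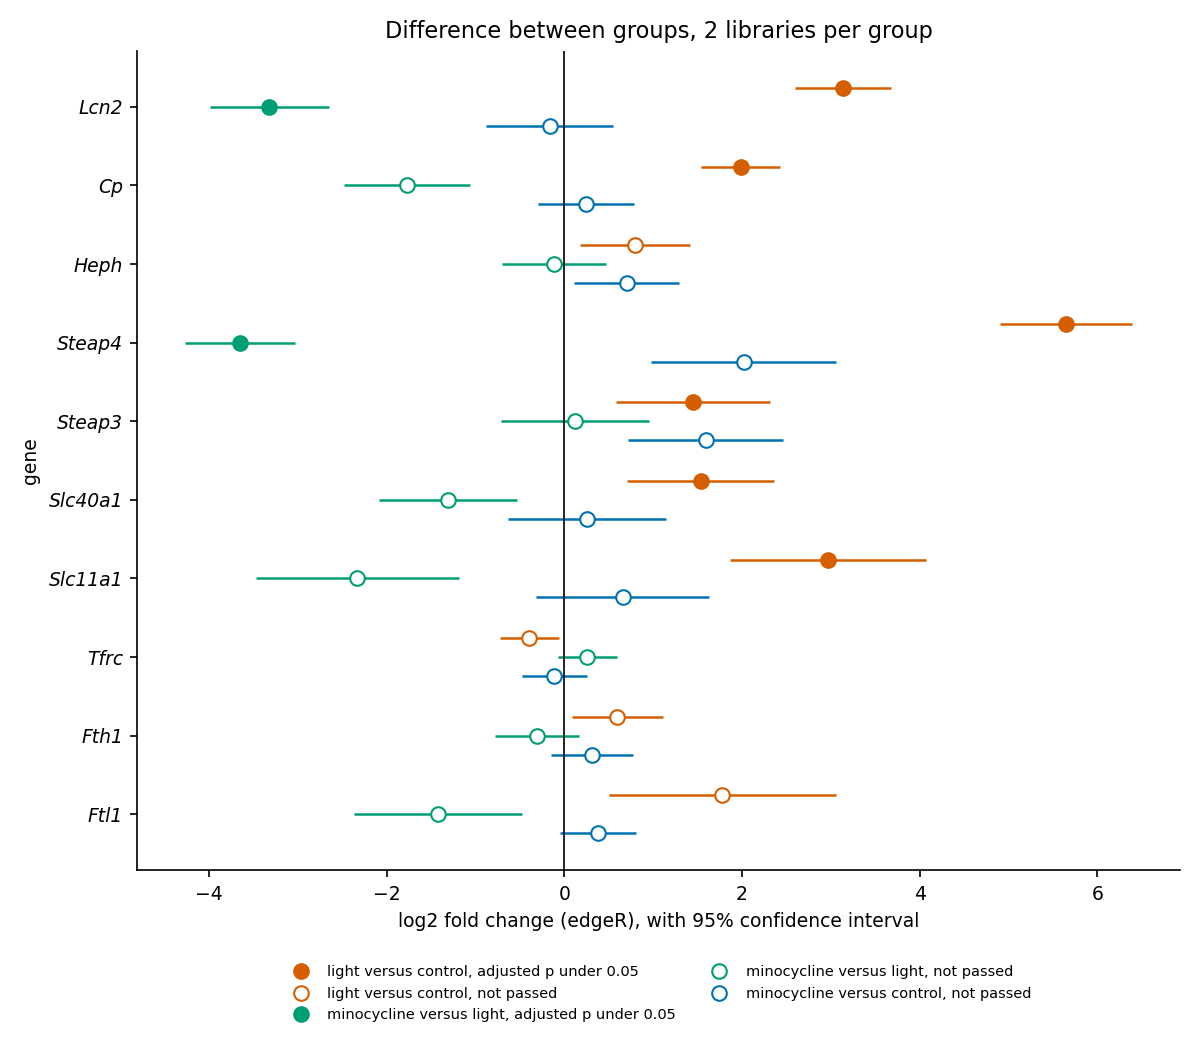
Log2 fold change (x axis) with its 95% confidence interval for each gene in the 3 pairs of groups, with 2 libraries per group. Filled points passed an adjusted p of 0.05: 6 genes for light against control and Lcn2 and Steap4 for minocycline against light.

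In counts of genes whose libraries did not overlap, 9 of the 10 were higher after light than in control and 1, Tfrc, was lower. The same held for 30.6% of tested genes in the higher and 30.3% in the lower direction. With minocycline against light, 7 were lower without overlap, 1 (Tfrc) was higher and 2 (Steap3 and Heph) overlapped. The shares over all tested genes were 28.7% lower and 26.1% higher. With minocycline against control, 5 were higher without overlap (Steap4, Steap3, Heph, Slc11a1 and Ftl1), Tfrc was lower and 4 overlapped. The shares were 15.9% higher and 24% lower.

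The pair of light-exposed libraries did not respond to the same degree. Of the 1079 genes that rose after light, 97.2% were higher in light 2 than in light 1, compared with 50.2% of all tested genes. Among the 10 iron genes, 7 were higher in light 2. Lcn2 and Steap4 were lower in light 2, at 0.647 and 0.765 times the level of light 1, as was Tfrc at 0.962 times. The change of Lcn2 over the control mean was 3.39 on the log2 scale in light 1 and 2.76 in light 2, and that of Steap4 was 5.55 and 5.16. Slc11a1 gave 2.07 and 3.28, and Ftl1 1.11 and 2.24. All 10 genes were higher in minocycline A than in minocycline B, by 1.01 to 1.64 times, against 50.5% of the genes tested between minocycline and light.

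**Figure D3:**
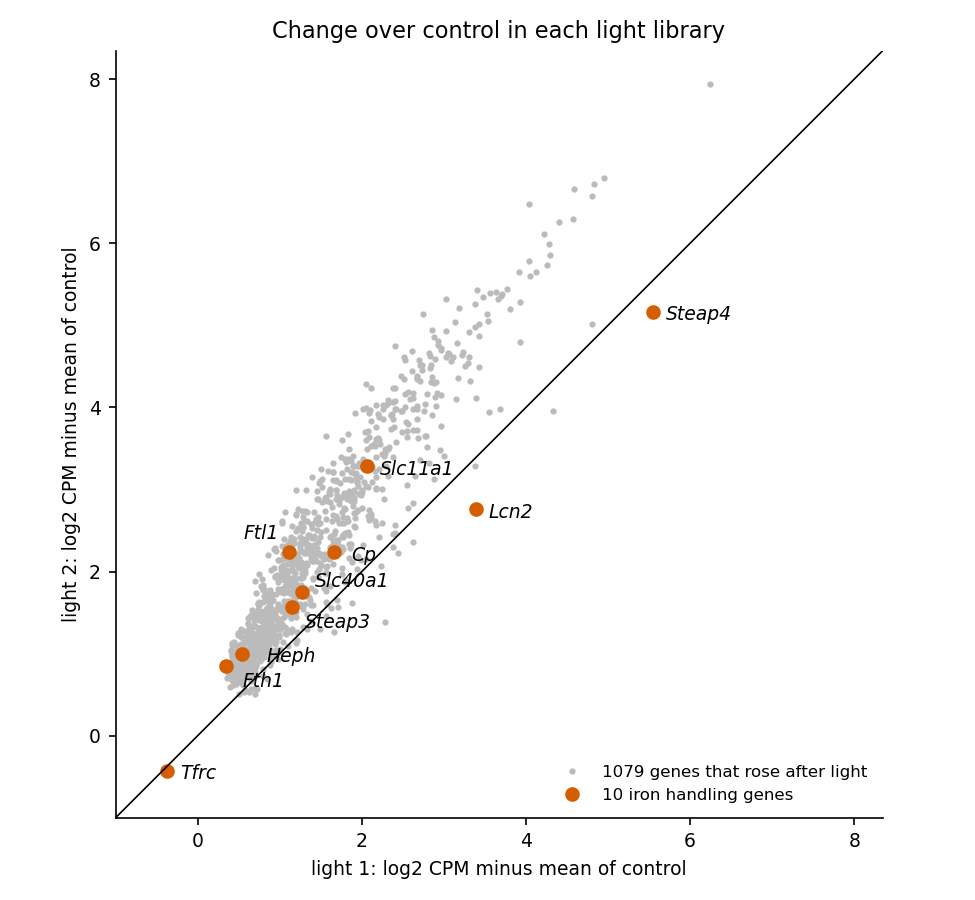
Change over the control mean in light 1 (x axis) and light 2 (y axis), as a difference of log2 CPM, for the 10 iron handling genes and the 1079 genes that rose after light. The line marks equal change: Lcn2, Steap4 and Tfrc lie below it and the other 7 genes above it.

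Levels were compared between genes per kilobase of the longest coding transcript (GENCODE vM21). In control retinas Fth1 was highest at 213 CPM per kb, followed by Tfrc at 62.9, Ftl1 at 38.1, Cp at 24.2, Lcn2 at 5.95, Heph at 1.31, Slc40a1 at 0.715, Slc11a1 at 0.336, Steap3 at 0.254 and Steap4 at 0.146. No neighbours in this order overlapped between libraries. After light the order was Fth1, Ftl1, Cp, Lcn2, Tfrc, Steap4, Slc11a1, Heph, Slc40a1 and Steap3. Steap4, last in control, reached 7.42 CPM per kb and stood sixth, and Lcn2 reached 52.2 CPM per kb and Tfrc 47.7. Ftl1 and Cp overlapped, as did Lcn2 and Tfrc, and Slc11a1, Heph and Slc40a1. With minocycline the genes in the first 6 places were in the same order as in control. The means of the 4 lowest genes, Slc40a1, Steap3, Steap4 and Slc11a1, lay between 0.515 and 0.821 CPM per kb. Among these, only neighbours in the order overlapped. The median transcript length in place of the longest moved 18 of the 30 levels by more than the spread between libraries and changed the order. With it, Slc40a1 stood above Heph in control and above Lcn2 and Heph with minocycline, and Steap3 stood above Slc11a1 in control. After light Tfrc, at 125.5 CPM per kb, stood above Cp at 120.7 and Lcn2 at 52.4. Slc40a1 then stood above Steap4, Slc11a1 and Heph, and Steap4 held place 7. The widest gap of lengths was that of Slc40a1, with 3370 bases for the longest and 429.5 for the median coding transcript.

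Genes with the most similar pattern were ranked by the root mean square difference of log2 CPM, after centring, over the 6 libraries and 13977 genes. Nearest to Lcn2 were Apoc1 (0.40), Chi3l1 (0.47), Tap1, Unc93b1 and Crym. Chi3l1, a secreted chitinase-like protein of reactive glia and macrophages, had 10.9 and 9.44 CPM in control, 55.5 and 48.1 CPM after light, and 14.01 and 8.64 CPM with minocycline. Like Lcn2 it was lower in light 2, whereas Apoc1, Tap1, Unc93b1 and Crym were higher in light 2. Apoc1, the closest, had 6.37 CPM in light 1 and 9.02 CPM in light 2. Nearest to Steap4 were Tnfrsf1b (0.72), Myo1f, Serpina3n, Fcer1g and Tyrobp. Serpina3n, a secreted protease inhibitor, had 4.41 and 3.52 CPM in control, 51.8 and 63.9 CPM after light, and 13.9 and 11.2 CPM with minocycline. Tyrobp had 42.8 CPM in light 1 and 132 CPM in light 2. Unlike Steap4, all of these nearest genes were higher in light 2. Steap4 had no gene as close as those near Cp, whose nearest were H2-Q10 (0.13), Lrrc8c, Chl1, Flnc and H2-D1. The H2 genes have near-identical copies, so their counts are uncertain.

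Of 54 further symbols of iron and heme handling, written as 7 lists, 50 had a row, and 37 to 40 were tested per comparison. After light 1 rose, 1 fell and 35 did not pass, with a median log2 fold change of 0.05. DESeq2 gave 2 higher (Hmox1 and Lrp1) and 2 lower (Fbxl5 and Pcbp2). Over all tested genes the edgeR shares were 7.52% higher and 3.8% lower. An unadjusted p under 0.05 was found for 9 of the 37, compared with 28.9% of all tested genes. With edgeR 0 passed in either minocycline comparison, where 8 of 40 had an unadjusted p under 0.05 against light and 3 of 38 against control, compared with 21.1% and 7.01% of all tested genes. DESeq2 gave 2 higher (Fbxl5 and Pcbp2) and 2 lower (Lrp1 and Trf) with minocycline against light and 0 against control. Hmox1, which encodes the inducible heme oxygenase that frees iron from heme, rose 1.97-fold after light (adjusted p = 0.0489, edgeR). It had 8.96 and 7.82 CPM in control, 12.1 and 20.7 CPM after light, and 8.66 and 10.4 CPM with minocycline. Fbxl5, the iron-sensing subunit of the ligase that degrades iron regulatory protein 2, fell by 0.74 on the log2 scale (adjusted p = 0.0312, edgeR). It had 806 and 746 CPM in control, 507 and 422 CPM after light, and 671 and 730 CPM with minocycline.

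By list, medians after light lay between -0.40 and 0.37, and with total library size in place of TMM the median of all tested genes moved from 0.0025 to 0.24, a shift larger than the medians of the metalloreductase, storage and mitochondrial lists. Among 9 tested genes of heme handling the median log2 fold change was 0.37, with 1 that rose. The heme scavenger receptor Lrp1, the most abundant of them, gave 0.91 (adjusted p = 0.0586, edgeR) and passed as higher with DESeq2. Among 5 tested genes of iron regulation the median was -0.40, with 1 that fell. The 9 genes of iron uptake had a median of 0.24 and none passed. Transferrin (Trf), the plasma iron carrier, ranged from 69.7 to 164 CPM in control and 152 to 265 CPM after light, and stood at 70.9 and 79.6 CPM with minocycline, so that the control libraries alone differed by more than a factor of 2. Medians were 0.11 for 4 other metalloreductases, -0.22 for 3 genes of iron storage and chaperones and 0.02 for 7 genes of mitochondrial iron. None of these passed with edgeR, while Pcbp2 passed as lower with DESeq2. Steap2, the most abundant of the metalloreductases, had a log2 fold change of -0.23, the iron chaperone Pcbp2 -0.49 and mitoferrin 1 (Slc25a37) 0.08. Hephl1, the remaining ferroxidase, had 0 to 1 counts per library. In all, 6 genes of these lists had 3 counts or fewer in every library.

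**Figure D4:**
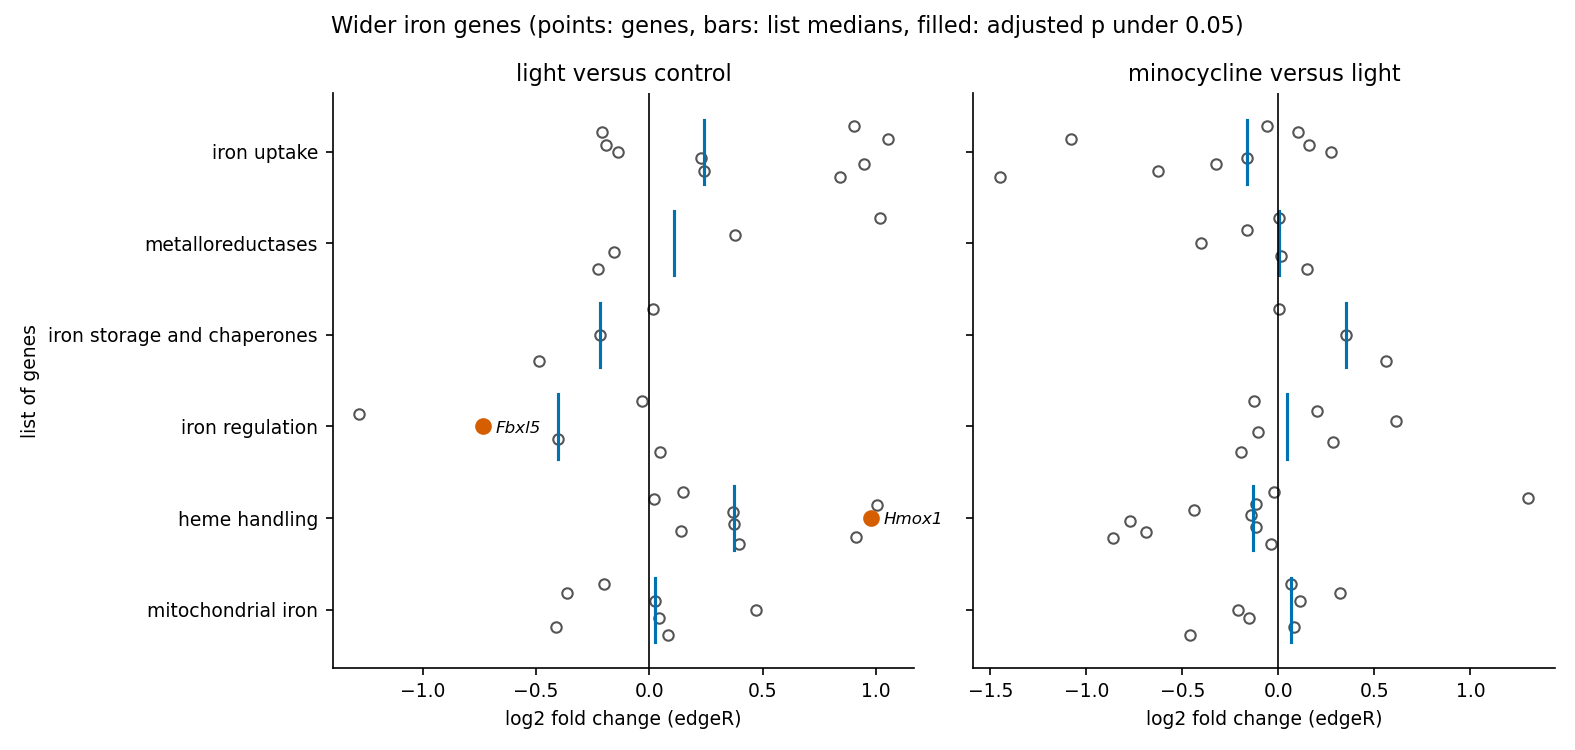
Log2 fold change of each tested gene of 6 lists of iron and heme handling for light against control and for minocycline against light. Filled points passed an adjusted p of 0.05, which were Hmox1 and Fbxl5 after light, and bars are list medians, which lie between -0.40 and 0.37 after light.

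Marker lists of cell types moved between the same groups as the iron genes. Of the 10 microglia genes, 6 rose after light, and the median log2 fold change was 2.91 after light, -2.84 with minocycline against light and 0.34 with minocycline against control. The 9 genes of Müller cells and reactive glia summed to 2826 and 1999 CPM in control, 3651 and 4938 CPM after light, and 3581 and 2841 CPM with minocycline. After light 5 of 9 rose, with a median log2 fold change of 1.10, and the median was -0.75 with minocycline against light. Most of the gap between light 1 and light 2 was Apoe. Its level was 208 and 172 CPM in control, 609 and 1504 after light, and 386 and 327 with minocycline. Glul did not follow the sum, with 1476 and 936 CPM in control, 1421 and 1364 after light, and 1733 and 1375 with minocycline. The 8 rod genes summed to 92431 and 72852 CPM in control, 54588 and 38639 CPM after light, and 79311 and 85250 CPM with minocycline, and 1 of 8 fell after light. With minocycline against light, 0 of the 10 microglia, 0 of the 9 glia and 0 of the 8 rod genes passed with edgeR. Light 2 had the higher microglia and glia sums and the lower rod sum of the light-exposed pair. Of the 10 iron genes, 7 were higher in light 2, and Lcn2, Steap4 and Tfrc were higher in light 1. The part of these shifts in the levels of the iron genes was not tested.

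The 7 listed of 9 red blood cell genes summed to 0.142 to 1.91 CPM, most of it Alas2, the erythroid enzyme of heme synthesis. All 4 listed globin genes had 0 counts in every library; they have near-identical copies and the handling of reads that map to several places is not stated, so these zeros are uncertain. The 5 listed of 6 monocyte genes summed to 2.13 to 6.41 CPM, most of it Vcan. Ccr2, the chemokine receptor of inflammatory monocytes, had 0 counts in both controls, 10 and 12 after light, and 1 and 0 with minocycline, so it was highest in the light-exposed libraries. The part of such cells in the levels of the iron genes was not tested. Endothelial genes summed to 185 to 362 CPM with 1 of 8 that rose after light. Retinal pigment epithelium genes summed to 142 to 386 CPM, the highest value being in control 2, with 1 of 7 tested genes that fell after light. The 10 corneal epithelium genes summed to 4.58 to 22.98 CPM in control and light-exposed libraries but to 201 and 284 CPM in minocycline A and B, where 3 of 9 tested genes rose over control and 1 of 9 over light. The part of this epithelial RNA in the levels of the iron genes with minocycline was not tested.

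**Figure D5:**
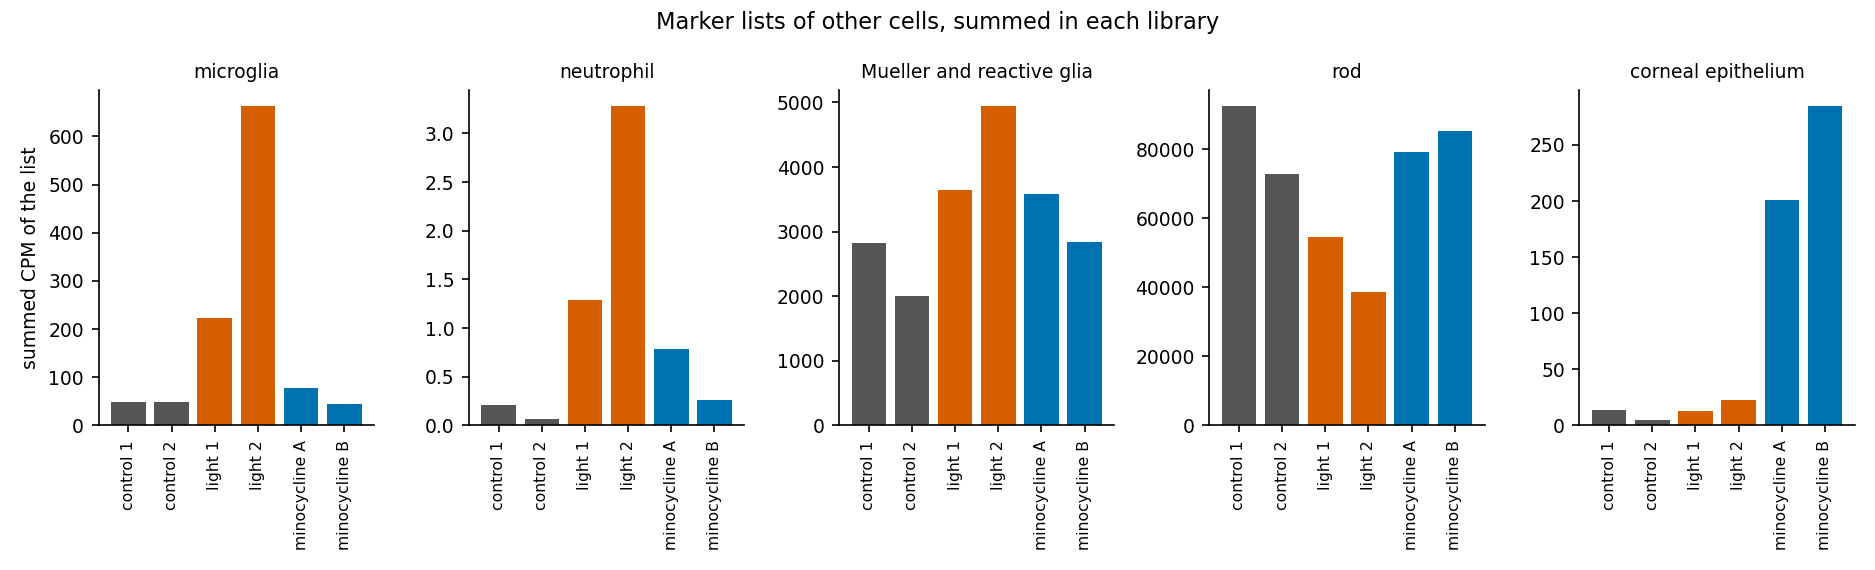
Summed CPM of 5 marker lists in each of the 6 libraries (linear axes starting at 0, own range per list). Microglia sums are highest in light 1 and 2 (224 and 662), neutrophil sums stay at or under 3.28, and corneal epithelium sums are high in minocycline A and B alone.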

How the data were processed

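Per the labels and the study's methods, single reads of poly-A RNA from strand-marked libraries were aligned by the authors to mm10 (GRCm38) with STAR within RNA Express. The deposited counts are whole numbers per gene with totals that differ between libraries, and they were treated as unscaled. The study's data statement calls them normalized, and whether they were scaled before deposit was not tested. Aligner and workflow versions, the annotation and whether counting used strand are not given in the sources used here. No value column was left out (0 unused). Each pair of groups was fitted alone in edgeR 4.0.16 (R 4.3.3) with filterByExpr, TMM scaling and the robust quasi-likelihood F test, and p-values were adjusted over all tested genes by Benjamini-Hochberg. A gene passed at an adjusted p under 0.05. The prior count of log2 CPM was 2. DESeq2 1.42.0, other scalings, filters and thresholds, a single fit of all libraries, the replicate block and each library left out were alternatives. On counts simulated for light against control, 191 of 197 genes set to a log2 fold change of 3 passed, and 2 unchanged genes did. For minocycline against light these were 188 of 199 and 9, and for minocycline against control 197 of 199 and 11. The simulation changed 200 genes and drew each gene independently. It held no shift shared by many genes within a library, such as that between light 1 and light 2. It thus does not give the share of true changes that pass in these data. The 10 genes and the gene lists were chosen with earlier results of these data known. Named besides the 10 were the most abundant gene of each wider list, those that passed, and the 5 genes nearest in pattern to Lcn2, Steap4 and Cp. Groups of 2 allow no test for outlying libraries.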

Additional observations from a re-analysis of the deposited data

How the results depend on the processing

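With 2 libraries per group, which genes passed depended on single libraries, and where 1 library was left out, the lone sample was assumed to vary like the other group. After light, 6 of the 10 genes passed as higher, against 8 with total library size (Heph and Ftl1 added), 7 with DESeq2, 3 at an adjusted p under 0.01 and 1 to 9 with 1 library left out: 1 (Steap4) without control 1 or control 2, 9 without light 1 and 5 without light 2. With minocycline against light, 2 passed as lower, against 6 with DESeq2, 1 with DESeq2 size factors (Steap4, with Lcn2 lost), 4 without a filter, 4 with all 6 libraries in one fit, 0 with total library size, 0 at an adjusted p under 0.01, and 0 to 5 with 1 library left out (5 without light 1, 0 without minocycline B). With minocycline against control the count was 0, and 0 to 2 with 1 library left out (Steap4 and Steap3 without minocycline B). With total library size, medians over all genes were 0.24 for light against control, -0.17 for minocycline against light and 0.06 for minocycline against control.

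Directions that turned were all of differences of at most 0.25 in size. For minocycline against light, Steap3 (0.12) gave -0.051 with total library size and -0.16 to 0.34 with 1 library left out, and Heph (-0.12) gave -0.34 to 0.12, the latter without light 2. For minocycline against control, Slc40a1 (0.25) gave -0.091 without control 2 to 0.69 without control 1, Cp (0.24) gave -0.17 without minocycline A to 0.52 without minocycline B, and Lcn2 (-0.17) gave -0.45 without minocycline A to 0.026 without minocycline B. Of 368 values of single genes, 314 kept their direction and side of the threshold. Over all genes after light, 1079 rose and 545 fell, against 1930 and 133 with total library size and 3 and 0 without control 1. With minocycline against light 6 fell and 2 rose, against 734 and 463 with DESeq2, and with minocycline against control 23 rose, against 434 without minocycline B. With at least 10 counts in every library, Steap4 was not tested against control.

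With the replicate number as a block, 7 of the 10 genes were higher after light, Fth1 added to the 6. Control 1 and light 1 did not deviate together (Pearson's r = -0.0253 of deviations across 13977 genes), and no label says that a number marks a litter or batch. No paired analysis was possible because the headers give no replicate number with minocycline in the other comparisons.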
